A study of Danio rerio with 3 samples.

Results

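Candidate miRNAs are small RNA sequences that the authors' annotation treated as miRNAs without giving them a known miRNA name, and they carry labels beginning with PC-5p or PC-3p for the arm assigned to them. They were taken as every sequence with such a label in the authors' deposited table of all libraries, with 1 entry per distinct sequence and the most abundant entry kept. This gave 217 candidates among 1202 sequences (18.1%), of which 102 were labelled 5p and 115 were labelled 3p. The other sequences carried a zebrafish miRNA name (497) or the name of a miRNA from another species (488).

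The study sequenced small RNA from whole bodies of wild-type AB zebrafish of the F1 generation at 7 days post fertilization (dpf). Their F0 parents had been kept from 6 hours post fertilization (hpf) for 90 days in water to which 6 β-diketone antibiotics had been added as a mixture, at 0, 6.25 or 12.5 mg/L. Its tetracyclines were oxytetracycline, chlortetracycline and doxycycline, and its fluoroquinolones were enrofloxacin, ofloxacin and ciprofloxacin. Each dose was represented by 1 library of 36 bp reads, and no difference given here could be checked against a replicate. The libraries are called control, low dose (6.25 mg/L) and high dose (12.5 mg/L) after the water of the parents. In whole-body RNA, fewer cells of a type and less RNA per cell cannot be told apart.

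A miRNA is cut from a hairpin transcript, first by Drosha in the nucleus and then by Dicer in the cytoplasm. The product is a short duplex of the 5p arm and the 3p arm of the hairpin, whose strands pair with each other and leave short overhangs at their 3′ ends. One strand is usually loaded into an Argonaute protein, where bases 2 to 8, the seed, lead the pairing with target mRNAs. Annotation programs propose candidates from reads that map to predicted hairpins, and other short RNAs, such as pieces of tRNA, can be proposed in the same way. No target or function is known here for the candidates, and the hairpins and their genome positions were not analysed here.

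The 10 most abundant candidates are shown first, because they are the members with the most counts behind them. They are written 5′ to 3′ as in the deposited table, with T for U and with the seed in capitals.
PC-3p-5176_503: aCCATCGAccgttgactgtgcca
PC-3p-27208_73: aTCGAACTcggtcgtttaga
PC-5p-8914_292: aCAGGAATttggccactgcact
PC-3p-14871_163: tCGGGTCGctaatgacgtcacct
PC-3p-32066_57: cTGCAGGGcgtctctggagca
PC-5p-34277_52: gATTGAGGaactgaggagc
PC-3p-32461_56: cATTTTCCaggctttctaggac
PC-5p-19610_114: tAAAAAGCctttatttacatgac
PC-5p-33462_54: tACCGACTcacggtctctctcc
PC-3p-47284_31: gGAGTTGTggatggacatcatgt

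Candidates that are complementary to one another form a second set, shown because such pairs have the form of the 2 strands of a miRNA duplex. Capitals mark the bases that pair with the partner, G-U pairs included. The 5 most abundant sets are given, then that of PC-5p-108037_9, with the 5p strand first.
PC-5p-8914_292: ACAGGAATTTGGCCACtGCAct
PC-3p-66095_19: TGCtGTGGCCAAATTCCTGTaa
PC-5p-28893_67: TGTATCCCATCTGGACTTcAtt
PC-3p-101681_10: TtAAGTCTAGATGGGATACAgc
PC-5p-34659_51: aAAGTGGACAAAAGAaACAcatt
PC-3p-65396_19: TGTgTCTTTTGTCCACTTgtga
PC-5p-66049_19: tCAGTGCAGTGGTTCAGCTGta
PC-3p-83344_13: CAGCTGAACCACTGCACTGtg
PC-5p-53097_26: CAAATAGaGCATCTAAAcTgtt
PC-3p-128681_7: AtTTTAGATGCcCTATTTGac
PC-5p-108037_9: aATGTTCTGTGACcATTGAAAt
PC-3p-119345_8: TTTCGATaGTCACAGAATATggt

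Candidates were scarce. Counts of the 1202 sequences, 1 entry each, summed to 4534557 in the control, 5099264 at the low dose and 6041242 at the high dose. Shares of a library and equal totals use these sums, which leave out the other entries of a sequence. All candidates together held 895.5 counts in the control library, or 0.0197% of its sum (95% exact Clopper-Pearson interval 0.0185 to 0.0211). At the low dose they held 1178.5 counts (0.0231%, 0.0218 to 0.0245), and at the high dose 1196.5 counts (0.0198%, 0.0187 to 0.0210). The share at the low dose lay above both other intervals, and the shares at 0 and 12.5 mg/L lay within each other's interval. These intervals and all others here cover counting error only, because amplified reads are not independent molecules and larvae differ.

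The most abundant candidate, PC-3p-5176_503, ranked 336th of all 1202 sequences by its mean. The median candidate had a mean of 1.99 normalised reads over the 3 libraries, against 73.0 for zebrafish-named sequences and 0.787 for sequences named for other species. Normalised reads are the authors' counts multiplied by 1 factor per library, which was 1.18 in the control library, 1.02 at the low dose and 0.709 at the high dose. In 145 of 217 candidates no library had more than 5 counts.

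Detection, taken as a count above 0, reached 134 candidates in the control library, 152 at the low dose and 141 at the high dose. Over all 1202 sequences it reached 824, 838 and 900 in the same order, so the high dose led there. All 3 libraries held 111 candidates (51.2%), 33 were found in a pair of libraries, 28 in 1 library and 45 (20.7%) in none of those used here. Among zebrafish-named sequences 79.1% were in all 3 libraries and 1.61% in none, and among those named for other species 41.8% and 24.8%. A count of 0 allows a share of up to 6.62e-05% in the control library, 5.88e-05% at the low dose and 4.97e-05% at the high dose. Candidates found in 1 library numbered 17 at the low dose, 7 in the control library and 4 at the high dose. Those missing from 1 library numbered 17 in the control library, 9 at the low dose and 7 at the high dose. The same splits over all sequences are not given here. Except for PC-5p-108037_9, described below with its partners, no candidate detected in 1 library had more than 5 counts there.

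The candidates were 18 to 26 nt long, and 96 of them (44.2%) had 22 nt, the usual length of a miRNA. Lengths of 21 to 23 nt covered 158 (72.8%), against 85.5% of zebrafish-named sequences and 68.6% of those named for other species. Lengths of 18 or 19 nt covered 40 (18.4%), against 4.83% and 11.9%. The 2 arms differed in this respect: 63 of 115 3p candidates had 22 nt, and 33 of 102 5p candidates did.

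Length and detection went together. Of the 45 candidates at 0 in all 3 libraries, 25 (55.6%) had 18 or 19 nt, and of the 111 found in all 3 libraries, 8 (7.21%) did. A length of 22 nt was held by 6 of the 45 and by 61 of the 111. Sequences named for other species ran the same way, with 28.9% at 18 or 19 nt among those at 0 everywhere and 4.90% among those found in all 3 libraries. The undetected candidates were 27 5p and 18 3p sequences, and those in all 3 libraries were 44 5p and 67 3p sequences.

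**Figure D1:**
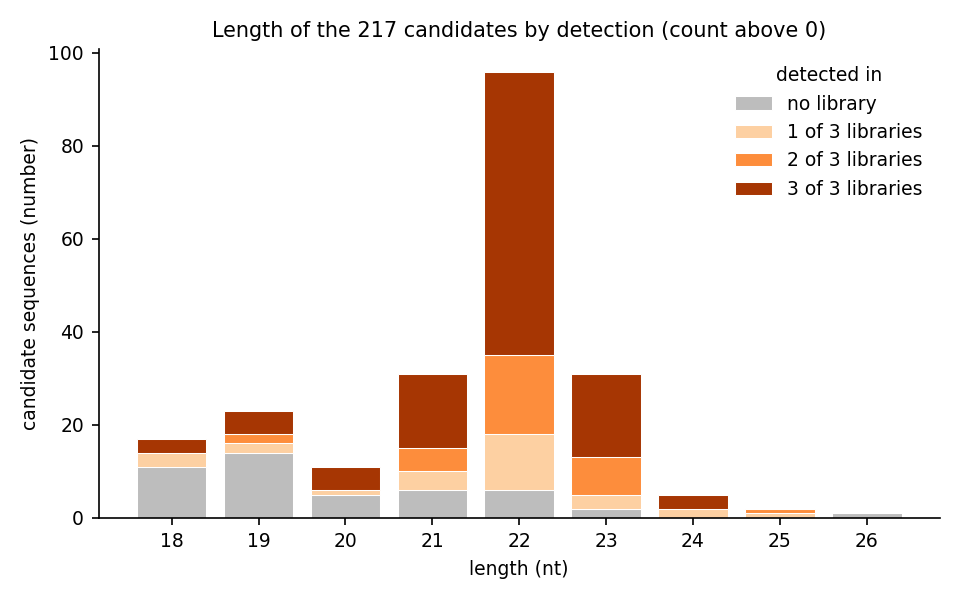
Number of candidates (y axis) by length in nt (x axis), with each bar divided by the number of libraries in which the candidate had a count above 0. The 22 nt bar holds 96 candidates with 61 of them in all 3 libraries, while 25 of the 40 candidates of 18 or 19 nt were in none.

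The longest candidates were scarce. The longest were PC-5p-2107622_1 of 26 nt, which was at 0 in all 3 libraries, and PC-5p-100801_10 and PC-3p-158907_5 of 25 nt. PC-5p-100801_10 had counts of 0, 1 and 1 in order of dose, and PC-3p-158907_5 had 0, 1 and 0. The 3 most abundant of the 17 candidates of 18 nt were PC-5p-6873_380 with 18, 21 and 15 counts, PC-3p-123383_7 with 1, 2 and 4, and PC-5p-513166_2 with 0, 4 and 0. PC-5p-6873_380 was thus the only one of the 17 with a mean of at least 10 normalised reads.

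Many miRNAs begin with U, written as T, a base favoured by the binding pocket of human Argonaute. T was the first base of 112 candidates (51.6%), of 45.9% of zebrafish-named sequences and of 44.7% of those named for other species. It was more frequent in scarce candidates, with 30 of 45 (66.7%) at 0 everywhere and 47 of 111 (42.3%) in all 3 libraries. The 5p candidates began with A in 39.2% of cases, and the 3p candidates in 21.7%. The median G+C content was 40.0%, against 43.5% for zebrafish-named sequences and 47.4% for those named for other species.

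The label was checked against the named sequences of the same table. Of the 217 candidates, 3 held a whole named sequence and 1 more base at the 3′ end, here in capitals.
PC-3p-5176_503: accatcgaccgttgactgtgccA
PC-3p-14871_163: tcgggtcgctaatgacgtcaccT
PC-3p-47284_31: ggagttgtggatggacatcatgT
These 3 therefore do have a named relative in the data, and they are among the 10 most abundant candidates. The other 214 held no whole named sequence and lay within none.

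PC-3p-5176_503 equals a deposited form of miR-181a-3p, the passenger arm of a family known from neural and immune cells, plus a final A. Counted from 1 at its 5′ end, it differs from the main deposited miR-181a-3p by T16C and A20G, the miR-181a-3p base first. It had 59.0 normalised reads in the control library, 69.5 at the low dose and 39.7 at the high dose. The named form without the final A stood at 640, 818 and 526. Both were highest at the low dose. Of the counts of both forms, rounded to whole numbers here and in all such shares below, the candidate held 8.43% (6.32 to 11.0), 7.83% (6.13 to 9.81) and 7.01% (5.34 to 9.01) in order of dose, with overlapping intervals.

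PC-3p-47284_31 equals a deposited form of miR-219-3p plus a final T. miR-219 is known for its part in the maturation of oligodendrocytes, the cells that make myelin in the brain. The candidate had 24.8, 21.5 and 23.4 normalised reads in order of dose, and the named form 154, 212 and 134. The candidate was lowest where the named form was highest. Its part of the counts of both was 13.8% (8.76 to 20.3), 9.17% (5.77 to 13.7) and 14.9% (10.5 to 20.2), and the intervals overlap.

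PC-3p-14871_163 equals a sequence named for the channel catfish miR-7547 plus a final T. Here the candidate was the abundant form, with 35.4, 38.8 and 41.8 normalised reads, against 4.72, 7.15 and 11.3 for the named form. It held 88.2% (72.5 to 96.7), 84.4% (70.5 to 93.5) and 78.7% (67.7 to 87.3) of the counts of both. A further 2 candidates matched a named sequence over at least 15 bases with at most 2 mismatches. One of them was PC-5p-373463_2, which matched miR-199-5p of mesenchymal tissue with G23T and 3 further bases at its 5′ end.

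Seeds were compared next, since miRNAs with the same seed are grouped as a family. Of the 217 candidates, 15 shared bases 2 to 8 with a named sequence, and for 6 of them that was a zebrafish-named one. Of the 15, 3 had a mean of 10 or more, and these were the 3 candidates described above. Just under that mean, with 1 of its 2 entries counted, stood PC-5p-66049_19, whose seed CAGTGCA is that of miR-148 and miR-152, a vertebrate family. It had 6.49, 18.4 and 3.54 normalised reads in order of dose and was highest at the low dose. Beyond the seed it matched neither miRNA within 2 mismatches. The candidates had 207 distinct seeds, and 9 seeds were shared by more than 1 candidate.

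Some candidates shared part of their sequence with each other. A stretch of 12 bases joined 26 candidates into 11 groups, and the largest group had 4 members, all 5p, with the shared bases in capitals.
PC-5p-69855_17: tacgGATAGAATCAGCggtgagc
PC-5p-163310_5: acgGATAGAATCAGCcgagcggt
PC-5p-106842_9: gGATAGAATCAGCggagctgga
PC-5p-210973_4: actGATAGAATCAGCggagcgc
Each of the 4 had a mean between 1.40 and 3.09 normalised reads, and none had more than 4.5 counts in a library. Their flanks differ, so they are not forms of 1 sequence trimmed at the ends.

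Another pair of 5p candidates held a stretch known from the D arm of many vertebrate tRNA genes, where it lies in the internal promoter. The stretch is in capitals, was searched on the strand as written, and its 12 letters were chosen after the sequences were seen.
PC-5p-103480_9: aactggggatgTAGCTCAGTGGTa
PC-5p-104186_9: aactggggatgTAGCTCAGTGGT
It was found in these 2 of 217 candidates (0.922%) and in 0 of the 985 named sequences. Their counts were low, at 3, 3 and 3 for PC-5p-103480_9 and 4, 1 and 0 for PC-5p-104186_9 in order of dose. A match of letters is a description and does not show where the RNA came from.

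Complementary strands were searched among all candidates. A pair was counted where the facing bases had no bulge, at most 2 of them were unpaired, at least 16 were in Watson-Crick pairs, and both 3′ overhangs had 0 to 4 bases. This rule was set after the sequences were seen. Of the 11730 possible pairs of a 5p with a 3p candidate, 14 met it, while 0 of 5151 pairs of 5p candidates and 0 of 6555 pairs of 3p candidates did. With named sequences, 3 of 198555 pairs met it. The rule is strict for miRNAs: among 53 pairs of the 5p and 3p arms of a zebrafish-named miRNA, 6 met it. The sources used here do not say how arms were assigned, and if arms were assigned as sides of the same predicted hairpin, complementarity between 5p and 3p labels follows from the assignment.

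The 14 pairs joined 25 candidates, 12 of them 5p and 13 of them 3p, into 11 sets of complementary strands. Of these 25 candidates, 24 had 21 to 23 nt, against 72.8% of all candidates. Without the minimum of 16 Watson-Crick pairs, 14 pairs still met the rule, so that minimum left none out. Whether the other limits of the rule bear on length was not tested, and no conclusion is drawn from this difference. In 5 of the 14 pairs both 3′ overhangs had 2 bases, as Drosha and Dicer leave them. Of the 25 candidates, 6 had a mean of at least 10 normalised reads, and 2, the partners PC-5p-71842_16 and PC-3p-117805_8, were at 0 in all 3 libraries.

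The most abundant pair was PC-5p-8914_292 with PC-3p-66095_19, which had 19 paired bases and overhangs of 2 bases on both strands. The 5p strand had 38, 59.5 and 68 counts in order of dose, and the 3p strand had 12, 18 and 8. The 5p counts are from 1 of the 2 entries of that sequence, while the 3p strand had 1 entry. The 5p strand was the more abundant in every library. Its part of the counts of both was 76.0% in the control library (61.8 to 86.9), 76.9% at the low dose (66.0 to 85.7) and 89.5% at the high dose (80.3 to 95.3), and these intervals overlap.

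In PC-5p-28893_67 with PC-3p-101681_10 the 5p strand had more counts in every library, with 12, 18 and 17 against 1, 1 and 7. Its part of the counts of both was 92.3%, 94.7% and 70.8% in order of dose. The interval at the high dose (48.9 to 87.4) includes an even split, so that library does not settle which strand led. PC-5p-34659_51 and PC-3p-65396_19 were closer, with 11, 22 and 10 against 9, 12 and 7. PC-5p-53097_26 had 8, 16 and 11 counts and its partner PC-3p-128681_7 had 4, 7 and 10. The strand with more counts was thus the 5p strand in all 3 libraries for each of these 3 pairs. For PC-5p-34659_51 the intervals of its part of both were 31.5 to 76.9%, 46.5 to 80.3% and 32.9 to 81.6% in order of dose. For PC-5p-53097_26 they were 34.9 to 90.1%, 47.1 to 86.8% and 29.8 to 74.3%. An even split lies within every interval of these 2 pairs, so their counts do not settle which strand led. PC-5p-66049_19, with the miR-148 seed, and PC-3p-83344_13 exchanged order: the 5p strand had 5.5, 18 and 5 counts, and the 3p strand 15.5, 14.5 and 10.5. The 5p strand had 2 entries, of which 1 is counted, and the 3p strand had 1. The order can therefore depend on this choice. With each count rounded to a whole number, the 5p part of both was 27.3% (10.7 to 50.2) in the control library, 54.5% (36.4 to 71.9) at the low dose and 31.2% (11.0 to 58.7) at the high dose, with overlapping intervals.

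One set of partners was found almost wholly at the high dose. PC-5p-108037_9 had 0, 0 and 13 counts in order of dose, which against a floor of 3 counts per library is at least 2.60-fold higher at the high dose than in the control library and at least 3.01-fold higher than at the low dose. With the counting error of the 13 counts included, the exact intervals of these ratios begin at 1.83 and 2.12. It was the only candidate with 10 or more counts in 1 library and 0 in another, which is the rule that named it. How many named sequences meet this rule is not given here, so the pattern is not shown to be particular to PC-5p-108037_9. The folds, intervals and deposited p-value of this candidate rest on the same counts that chose it and are no separate support. The 3p partners of PC-5p-108037_9, PC-3p-119345_8 and PC-3p-91748_11, which overlap each other by 22 bases, had 0, 0.5 and 5 counts and 0, 0.5 and 4.5 counts. Both arms were therefore present in the same library and at most 0.5 counts stood in the others. In the authors' deposited table the Fisher p-value of PC-5p-108037_9 for 12.5 against 0 mg/L was 0.000669, which compares a pair of libraries and not the treatments. Its mean of 3.07 normalised reads keeps it out of the ratios below.

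**Figure D2:**
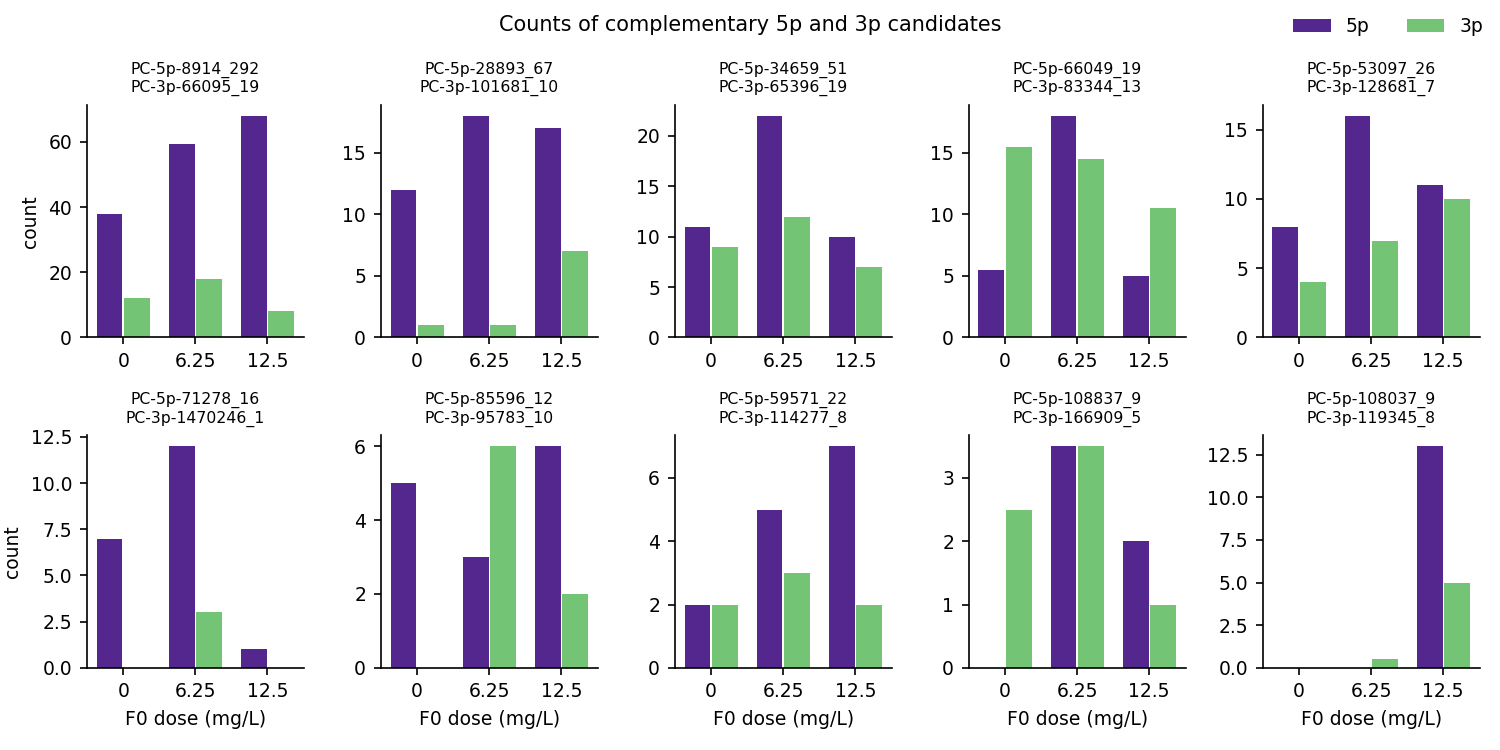
Counts (y axis, scaled separately in each panel) of a 5p candidate and its complementary 3p candidate by F0 dose in mg/L (x axis), for 1 pair from each of the 10 sets with any count, 1 library per bar. In the pair PC-5p-8914_292 and PC-3p-66095_19 the 5p strand leads at every dose, and PC-5p-108037_9 and its partner PC-3p-119345_8 stand at 13 and 5 counts at 12.5 mg/L.

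A pair of candidates had a complementary partner among the named sequences. PC-3p-5176_503 paired over 20 of 20 facing bases with a sequence named for the rat miR-3570 5p arm, which had 9.44, 11.2 and 2.13 normalised reads in order of dose. Both members of this pair were highest at the low dose and lowest at the high dose. PC-5p-59732_22 paired with sequences named for Atlantic salmon miR-7552a-3p and miR-7552b-3p, and it had 3, 2 and 1 counts against 13, 18 and 23 for miR-7552a-3p.

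Ratios were taken for the 29 candidates (13.4%) with a mean of at least 10 normalised reads, 15 of them 5p and 14 of them 3p. They held 62.2% of all candidate counts, with 33 to 174 counts each over the 3 libraries. The last candidates inside the limit were PC-5p-53097_26 (mean 11.2) and PC-3p-49904_29 (10.1), and the first outside it were PC-5p-24716_84 (9.86) and PC-5p-66049_19 (9.47). In all, 471 sequences passed the limit, and a difference of at least 2-fold on the scale of log2 (normalised reads + 1) was taken as large. That scale understates differences of scarce sequences. Both comparisons with 0 mg/L use the same control library and are not independent.

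The library at the high dose stood apart in the named sequences. Of 124 compared named sequences whose name marks a base substitution, 35 were at least 2-fold higher at the high dose than in the control library, against 16 of 318 without such a mark. Candidates carry no such mark. The factor for this library also depends on the method, since scaling to equal totals moves every log2 ratio of 12.5 to 0 mg/L by 0.32 and of 12.5 to 6.25 mg/L by 0.28. Counts past 2-fold, medians and orders of the libraries are therefore given below for both scalings. Values of scarce named sequences and the dose order over all sequences are given under the authors' scaling only.

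**Figure D3:**
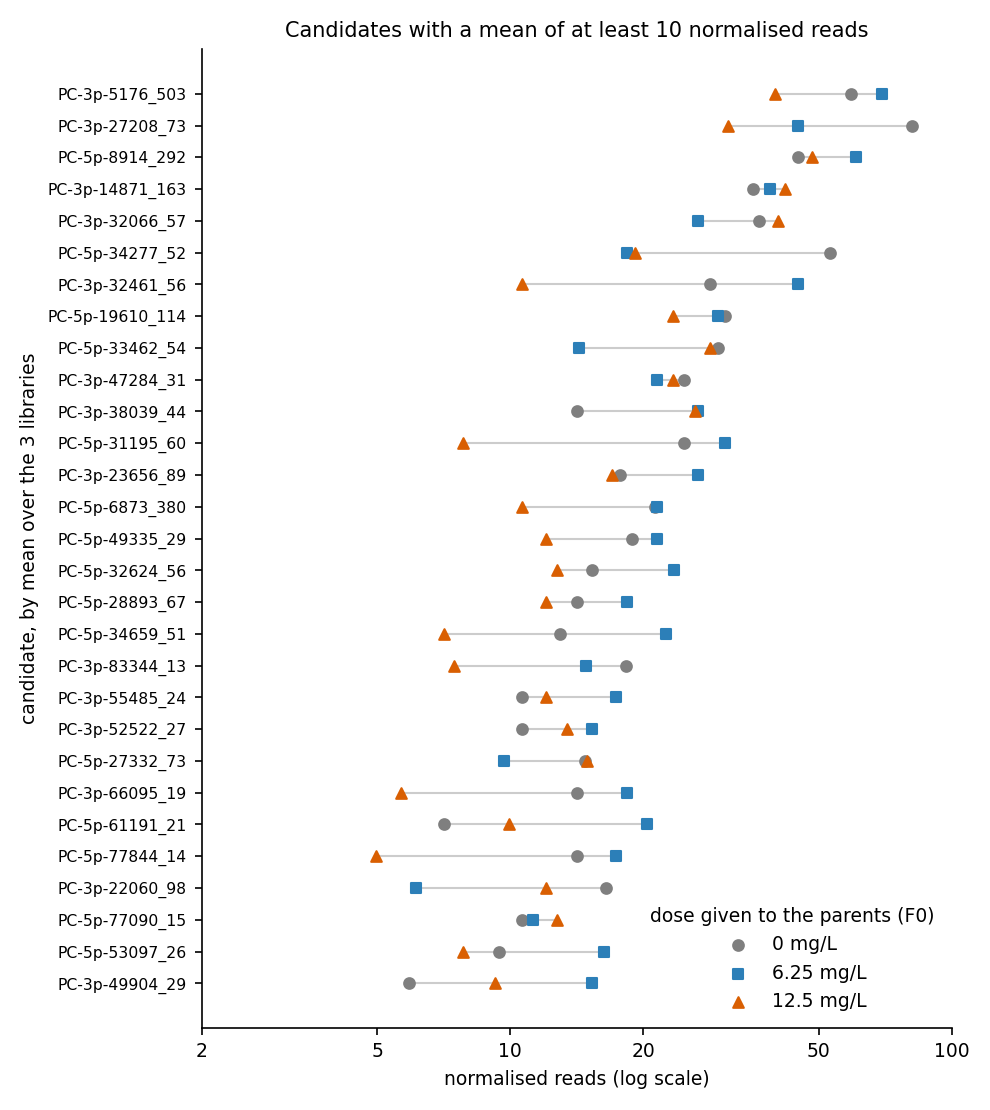
Normalised reads (x axis, log scale) of the 29 candidates with a mean of at least 10, in order of their mean (y axis), with 1 symbol per library. Under the authors' scaling, the library at 6.25 mg/L (squares) is the highest for 18 candidates and the one at 12.5 mg/L (triangles) the lowest for 15.

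At 6.25 against 0 mg/L, 2 of 29 candidates were higher by at least 2-fold, where 2.55% of all 471 compared sequences were, and 2 were lower by as much (background 2.55%). Under equal totals 2 candidates were higher and 2 lower, against 3.18% and 2.34% of all sequences. Among 64 named sequences with a mean below 60 and no substitution mark, 3 (4.69%) were higher and 3 (4.69%) lower under the authors' scaling. PC-5p-61191_21 had 7.08 normalised reads in the control library, 20.4 at the low dose and 9.93 at the high dose. It was 2.89-fold higher at the low dose than in the control library (interval 1.12 to 8.78), from 20 and 6 counts. PC-3p-49904_29 had 5.90, 15.3 and 9.22, and its 2.60-fold higher value had an interval that includes 1 (0.898 to 9.14). Neither was 2-fold higher at the high dose. Each of these candidates reached the limit of 10 on the mean only through its low-dose value, since its other values lay below 10. The limit therefore favours candidates that are high in that library, and these folds and intervals are no separate support.

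PC-5p-34277_52, a 19 nt sequence, had 53.1 normalised reads in the control library, 18.4 at the low dose and 19.1 at the high dose. It was 2.89-fold lower at the low dose (ratio 0.346, interval 0.189 to 0.611), and the control library stood above both others. PC-3p-22060_98 had 16.5, 6.13 and 12.1 and was 2.69-fold lower at the low dose (0.371, 0.117 to 1.03). Its mean of 11.6 lay near the limit on the mean, and its highest value stood in the control library. The limit favours such candidates, so this fold is no separate support. In the authors' deposited table all 4 of these candidates had a Fisher p-value below 0.05. The 4 were chosen from the same counts, so these p-values are no separate support. For PC-3p-49904_29 and PC-3p-22060_98 the intervals given here include 1 all the same. Over all candidates 19 of 218 had such a p-value, against a background of 22.6%. The tables of pairs of libraries hold 1 candidate more than the table of all libraries.

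PC-3p-22060_98 belongs to a group of 3 candidates with 20 bases in common.
PC-3p-22060_98: tTGGATCAACGTTGAATTACCt
PC-3p-58015_23: tTGGATCAACGTTGAATTACC
PC-3p-71331_16: TGGATCAACGTTGAATTACCtt
The form that lacks the last base, PC-3p-58015_23, had counts of 1, 0.5 and 4.5 in order of dose, and PC-3p-71331_16 had 0, 1 and 1. These forms were too scarce to add to the ratio of PC-3p-22060_98, which had 14, 6 and 17 counts.

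At 12.5 against 0 mg/L, 0 of 29 candidates were at least 2-fold higher (background 10.8%) and 7 at least 2-fold lower (background 4.25%). Among the 64 named sequences without a substitution mark and with a mean below 60, the range the candidates cover, 7 were higher and 6 (9.38%) were lower. That upper limit was chosen after the data were seen. Under equal totals 1 candidate, PC-3p-38039_44, was higher and 5 were lower, without PC-3p-83344_13 and PC-3p-66095_19, and over all 471 sequences the split of higher to lower went from 51 and 20 to 86 and 10. PC-3p-38039_44 had 14.2, 26.6 and 26.2 normalised reads in order of dose, with the control library below both others.

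The 7 lower candidates are shown with their seeds in capitals where not shown above.
PC-5p-31195_60: tCCATCTAtttggtctgttct
PC-3p-83344_13: cAGCTGAAccactgcactgtg
PC-3p-66095_19: tGCTGTGGccaaattcctgtaa
PC-5p-77844_14: aTTTCTGAtaatccataacaca
The seeds of the 7 were all different, and none was shared with a named sequence.

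PC-3p-27208_73 had the highest normalised value of any candidate in a library, at 81.4 in the control. It was lower at each higher dose, with 45.0 at the low dose and 31.2 at the high dose. The last value was 2.61-fold lower than control (ratio 0.383, interval 0.256 to 0.567), and the one at the low dose 1.81-fold lower (0.552, 0.370 to 0.818). Both intervals exclude 1. PC-5p-34277_52, low at both doses, was 2.77-fold lower at the high dose (0.361, 0.215 to 0.594).

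PC-3p-32461_56 had 28.3 normalised reads in the control library, 45.0 at the low dose and 10.6 at the high dose. It was 2.66-fold lower at the high dose than in the control library (0.376, 0.183 to 0.746). PC-5p-31195_60 had 24.8, 30.6 and 7.80 and was 3.18-fold lower (0.315, 0.137 to 0.683). In both, the value at the low dose was the highest of the 3 libraries.

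The other 3 were scarcer. PC-5p-77844_14 had 14.2, 17.4 and 4.96 normalised reads (2.85-fold lower, interval of the ratio 0.117 to 0.966). PC-3p-83344_13, a strand complementary to PC-5p-66049_19, had 18.3, 14.8 and 7.44 in order of dose (2.46-fold lower, 0.173 to 0.948). PC-3p-66095_19 had 14.2, 18.4 and 5.67 (2.50-fold lower, 0.142 to 1.07), and its interval includes 1. Its partner PC-5p-8914_292 stood at 44.8, 60.8 and 48.2, so the scarcer strand of this duplex passed the 2-fold limit under the authors' scaling and the other did not, while under equal totals neither did. In the authors' deposited table, a Fisher p-value below 0.05 was given for 3 of the 7, PC-3p-27208_73, PC-5p-34277_52 and PC-5p-31195_60. The 7 were chosen from the same counts, so these p-values and the intervals are no separate support. Over all candidates 19 of 218 had such a p-value, against a background of 31.8%.

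At 12.5 against 6.25 mg/L, 0 of 29 candidates were at least 2-fold higher (background 11%) and 5 at least 2-fold lower (background 3.4%). All 5 intervals exclude 1. PC-3p-32461_56 was 4.23-fold lower (ratio 0.237, interval 0.122 to 0.433), from 44 and 15 counts. PC-5p-31195_60 was 3.93-fold lower (0.254, 0.115 to 0.522). PC-5p-77844_14, PC-3p-66095_19 and PC-5p-34659_51 were 3.50, 3.24 and 3.17-fold lower. PC-5p-77844_14 and PC-3p-66095_19 lay near the limit on the mean, with means of 12.2 and 12.7. Their highest values, 17.4 and 18.4 normalised reads, stood at the low dose, the library they were compared with. The limit favours such candidates, so their folds and intervals are no separate support. Under equal totals the same 5 were lower and 2 were higher, PC-5p-33462_54 and PC-3p-22060_98, each of which had its lowest value at the low dose. Over all 471 sequences 15.5% were then higher and 1.70% lower. Among the 64 named sequences without a substitution mark and with a mean below 60, 9 (14.1%) were higher and 7 (10.9%) lower under the authors' scaling.

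Of these 5, only PC-5p-34659_51 was not among the 7 lower candidates of the comparison with control. It had 13.0 normalised reads in the control library, 22.5 at the low dose and 7.09 at the high dose. Its complementary strand PC-3p-65396_19 had 10.6, 12.3 and 4.96, so both strands were highest at the low dose and lowest at the high dose. The values of PC-3p-65396_19 rest on 9, 12 and 7 counts, which do not settle its order. In the authors' deposited table, a Fisher p-value below 0.05 was given for 3 of the 5. The 5 were chosen from the same counts, so these p-values and the intervals are no separate support. Over all candidates 15 of 218 had such a p-value, against a background of 29.8%. Over all 3 libraries, 31 of 217 candidates had a deposited chi-square p-value below 0.05, against 36.5% of the 1202 sequences. Such shares, here and for the pairs of libraries, depend on the number of counts. The median candidate had a mean of 1.99 normalised reads, and 45 candidates were at 0 in every library. The lower shares of candidates therefore do not show that candidates differed less between libraries.

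**Figure D4:**
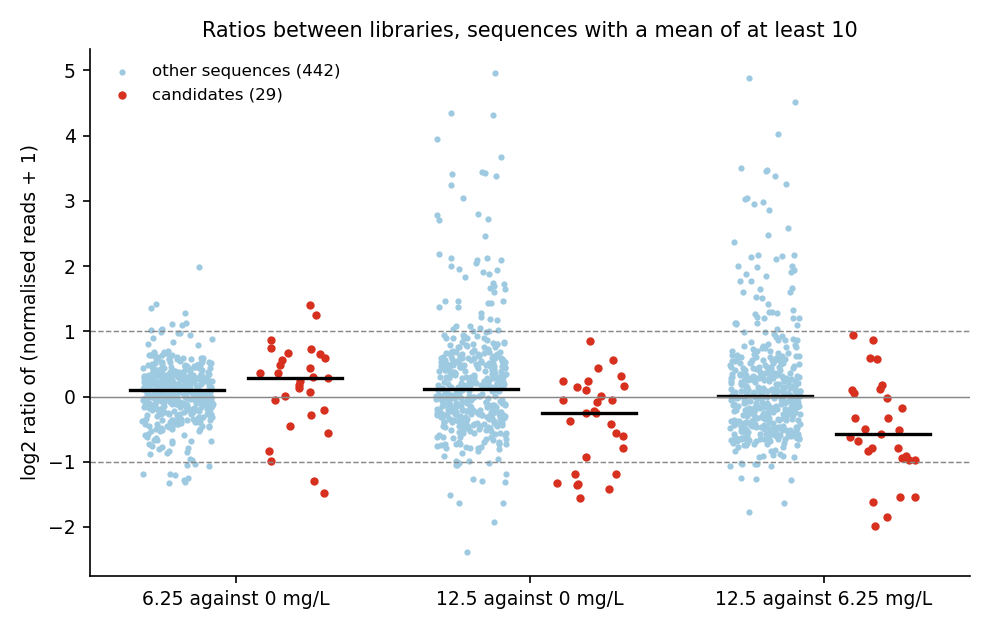
Log2 ratio of (normalised reads + 1) in each pair of libraries (y axis) for the 29 candidates and the 442 other sequences with a mean of at least 10, 1 point per sequence, with medians as black bars and 2-fold limits as dashed lines. In both comparisons of 12.5 mg/L, under the authors' scaling, 0 candidates lie above the upper limit, with 7 and 5 below the lower one.

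The median log2 ratio of the 29 candidates was 0.28 at 6.25 against 0 mg/L, where that of all 471 sequences was 0.11. Under equal totals these medians were 0.31 and 0.15. The next values are again under the authors' scaling. At 12.5 against 0 mg/L the candidate median was -0.25, against 0.08 for all, and at 12.5 against 6.25 mg/L it was -0.57, against -0.0021. Under equal totals the candidate median at 12.5 against 0 mg/L was 0.05, on the other side of 0, and that of all sequences 0.40. The candidate median minus that of all sequences was -0.33 under the authors' scaling and -0.35 under equal totals. For 12.5 against 6.25 mg/L the candidate median under equal totals was -0.31 and that of all sequences 0.28, and the differences were -0.57 and -0.59. Among the 64 named sequences without a substitution mark and with a mean below 60, the medians of the 3 comparisons were -0.08, 0.26 and 0.30.

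By library, 6.25 mg/L had the highest normalised value for 18 of 29 candidates, 0 mg/L for 7 and 12.5 mg/L for 4. The lowest value stood at the high dose for 15, in the control library for 8 and at the low dose for 6. Of all 471 sequences, 35.0% were highest at the low dose and 37.2% lowest at the high dose. This background is not matched in abundance: all 29 candidates had a mean of at most 56.1, and 110 named sequences lay below 60. The limit on the mean favours sequences near it that are high in 1 library. The numbers of candidates by library can therefore depend on the limit, and no conclusion is drawn from them. Under equal totals the low dose was still the highest for 16 candidates, the high dose for 8 and the control library for 5, against 26.1%, 61.1% and 12.7% of all sequences. The control library was then the lowest for 12 candidates and the high dose for 11, against 51.8% and 17.8% of all sequences. The leading class of lowest values therefore changed with the scaling. The order of the 3 libraries followed the dose in 5 candidates under the authors' scaling, with 3 (10.3%) downward and 2 (6.90%) upward. Downward order was found in 15.1% of all 471 sequences and upward order in 24.4%. With so few candidates in dose order, no difference from all sequences is read from these shares. The shares over all sequences under other scalings are not given here. The downward candidates were PC-3p-27208_73, PC-5p-19610_114 and PC-3p-83344_13, and the upward ones PC-3p-14871_163 and PC-5p-77090_15. The upward differences were small, from 35.4 to 41.8 normalised reads in the first and from 10.6 to 12.8 in the second. Under equal totals the same 3 were downward and 4 were upward, PC-3p-38039_44 and PC-3p-52522_27 being added, and scaling by the median of ratios added PC-5p-6873_380 to the downward ones.

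The other abundant candidates did not pass the 2-fold limit against the control library on the scale with the pseudocount. PC-3p-32066_57 had 36.6 normalised reads in the control library, 26.6 at the low dose and 40.4 at the high dose, and PC-5p-19610_114 had 30.7, 29.6 and 23.4. PC-5p-33462_54 had 29.5, 14.3 and 28.4, and the library at the low dose lay below both others. Its plain ratio to control was 2.06-fold lower at the low dose (0.485, 0.233 to 0.970), and its log2 ratio with a pseudocount of 1 was -0.99, just inside the limit. A pseudocount of 0.5 (-1.02) and scaling by the median of ratios (-1.08) put it past the limit. PC-5p-27332_73 differs from the scarcer PC-5p-127763_7 by 1 base, written C3T with the base of PC-5p-27332_73 first and counted from its 5′ end. The first had 12.5, 9.5 and 21 counts and the second 2, 0 and 6. In normalised reads these were 14.7, 9.71 and 14.9 for the first and 2.36, 0 and 4.25 for the second. Both were lowest at the low dose. The first was about level between the high dose and the control library (ratio 1.01, 0.464 to 2.11). The base lies in the seed, so the seeds of these candidates differ.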

How the data were processed

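Per the labels' protocols, total RNA was extracted with Trizol, and libraries were prepared with the TruSeq small RNA kit and read on a HiSeq instrument. The build Zv9 is named in the submitters' processing notes. The sources used here do not name the aligner, the miRNA database, the rule for naming candidates or the counting rule.

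The authors deposited raw values, which are estimated counts per sequence and partly fractional, and normalised values, a signal equal to the count times 1 factor per library. The authors also deposited p-values (Fisher and chi-square, per the file headers), a ratio (fold) and a log2 fold for pairs of libraries. Of these only the p-values are printed here, as the authors' own, and they compare libraries. Columns of per-sample values that could not be matched to a sample numbered 0.

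Each distinct sequence was used once, and 13 candidates stood on 2 rows. PC-5p-8914_292 and PC-3p-22060_98 were the 2 of these with a mean of 10 or more. Log2 ratios used the authors' normalised values with a pseudocount of 1, for sequences with a mean of 10 or more, and at least 2-fold was taken as large. Intervals are 95% exact (Clopper-Pearson) intervals from rounded counts, as are the shares of a strand or form in a pair. With 1 library per group no test was made. The candidates and lists were chosen with earlier results of these data known.

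Named were the 10 highest means, every candidate at least 2-fold different, those with a mean of 10 or more that share a zebrafish-named seed, those in dose order with at least 2-fold between 0 and 12.5 mg/L, the 3 longest and 3 shortest, those at 0 in a library with 10 or more counts in another, and 2 on each side of the limit. Complementary strands, candidates with a shared stretch and the tRNA stretch were chosen after their values were seen. Scripts used Python 3.11.15, pandas 2.3.3, numpy 2.4.6 and scipy 1.17.1 and were tested on simulated data.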

Additional observations from a re-analysis of the deposited data

Results flagged for a closer look

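PC-3p-227051_3 appeared in the authors' deposited tables of pairs of libraries and not in the table of all libraries, so it is not among the 217 candidates. It had counts of 1, 5 and 1 in order of dose, or 1.18, 5.11 and 0.709 normalised reads. It drew attention because its value at the low dose, from a table not used for the comparisons, lay above that of the control library. Its mean is below 10, so no ratio was taken.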

How the results depend on the processing

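No paired analysis was possible because each group had 1 library. Counts past 2-fold are given as higher and lower for 6.25 against 0, 12.5 against 0 and 12.5 against 6.25 mg/L, where the reported values are 2 and 2, 0 and 7, and 0 and 5. A pseudocount of 10 gave 0 and 1, 0 and 2, and 0 and 2. Equal totals gave 1 higher at 12.5 against 0 and 2 higher at 12.5 against 6.25 mg/L, and moved the median log2 ratio of 12.5 against 0 mg/L to 0.052. Summing the rows of a sequence put 31 candidates inside the limit on the mean and gave 4 higher at 6.25 against 0 mg/L. Without the limit on the mean all 217 were compared, with 48 and 27, 26 and 40, and 19 and 56, and medians of 0, 0 and -0.011. A mean of 5 or more gave 8 and 4, 1 and 11, and 13 lower. A mean of 50 or more left 3 candidates, with 0 and 0, 1 lower, and 0 lower. Detection at 3 or more counts gave 83 candidates at 0 mg/L, 91 at 12.5 mg/L, 55 in all 3 libraries and 73 in none. Summed rows gave candidate shares of 0.0164%, 0.0195% and 0.0170%, and leaving out PC-3p-5176_503 gave 0.0218% at 6.25 mg/L. Lengths of 18 or 19 nt made up 6.90% of candidates with a mean of 10 or more and 6.73% of counts, and a first T 34.5% and 37.1%. Seeds of bases 2 to 7 matched 33 candidates. At most 1 unpaired base, an alternative added after the data were seen, left 8 complementary pairs. Of 110 alternative values of summary results, 40 moved and the others were kept. Numbers of candidates or pairs were kept when within 1.5 times the reported value, and shares when within their exact interval. Median log2 ratios were kept when of the same sign and within a rank-based interval of the median over the compared candidates. The median G+C content was kept when between the quartiles of the candidates. The causes of the moves were not tested. For single candidates, 435 of 435 alternative values stayed within their counting intervals. Those intervals are wide. For PC-3p-5176_503, with 174 counts, the ratio at 12.5 against 0 mg/L had an interval of 0.451 to 1.01. Equal totals moved its log2 ratio from -0.56 to -0.25. Intervals this wide make the check weak, and no conclusion is drawn from it. Thinned to the smallest library, 149 candidates would be detected at 6.25 mg/L and 134 at each other dose. With 33 to 174 counts per compared candidate, depth limits each ratio.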
